A study of Rattus norvegicus with 8 samples.

Results

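A set of 9 genes of antigen presentation and complement was followed across the arrays: B2m, Tap1 and Tap2 of the class I pathway, Cd74, RT1-Ba, RT1-Bb, RT1-Da and RT1-Db1 of the class II pathway, and the complement gene C4a. They were chosen by name, as the 9 genes whose probes match a listed symbol through their RefSeq accession, and all 9 were among the 36602 genes on the array. Of these, 8 passed the filter on dim probes and were among the 21677 genes tested. The filter kept a probe that was well above background on every array of at least 1 group. RT1-Ba did not pass it.

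The samples were cerebral cortex of 8-week-old Wistar rats, 1 animal per array, with 4 animals in each group. In the hypoxia-ischemia group (HI, labelled Rice) the left carotid artery was cut at 7 days of age and the pups then breathed 8% oxygen for 1 h at 33 °C. Control rats had no such insult, and a sham operation is not described in the labels. The cortex came from the hemisphere opposite the cut artery, or its counterpart in controls. The low oxygen reached the whole animal, so this cortex was spared the cut artery but not the hypoxia. The question is whether antigen presentation and complement genes differ in it in the young adult.

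Class I molecules, made of a heavy chain and the light chain that B2m encodes, show peptides from inside the cell to CD8 T cells. Tap1 and Tap2 form the pump that carries those peptides into the endoplasmic reticulum. Class II molecules pair an alpha with a beta chain, travel with the invariant chain Cd74 until they are loaded, and show peptides to CD4 T cells. In brain they are known mainly from microglia and from macrophages and dendritic cells at the borders of the tissue. C4 is cleaved early in the classical complement cascade, and complement tags material for uptake, synapses included. In the rat the class II, Tap and C4 genes lie together in the RT1 complex on chromosome 20.

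Levels are log2 of the processed signal minus the 75th percentile of the same array, so a level of 0 is that percentile. Levels of different probes are not comparable, and only differences between arrays are read from them. The 75th percentile itself was a signal of 234.2 on control 1 and 436.1 to 510.2 on the other arrays, and 58.7% to 67.1% of the spots on an array were well above background. Control 1 correlated at 0.942 to 0.954 with the other arrays, where those correlated at 0.973 to 0.990 among themselves. Each slide held 1 group and had 1 scan. Group, slide and scan therefore cannot be told apart.

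No difference between HI and control cortex was detected in any antigen presentation gene or in C4a. Of the 8 genes tested, 0 passed an adjusted p under 0.05 with limma, where 0.918% of all genes tested did (199 of 21677, 42 higher and 157 lower). At an unadjusted p under 0.05 the count was also 0 of 8, against 10.6% of all genes. Without control 1 it was again 0 of 8 after adjustment, against 3.64% of all genes. Single probes gave the same count of 0, against 0.804% of the 24875 probes tested. The groups overlapped for all 8 genes tested, where they did not overlap for 14.2% of all genes tested. They also overlapped for every one of the 14 probes of the 9 genes, those not tested included. Of the 8 changes, 5 lay above 0 and 3 below, with a median of 0.17 on the log2 scale against -0.03 over all genes tested. Without control 1 those medians were 0.14 and 0.00, and over the alternative settings the median of the 8 ran from -0.10 to 0.52, so it has no settled sign.

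**Figure D1:**
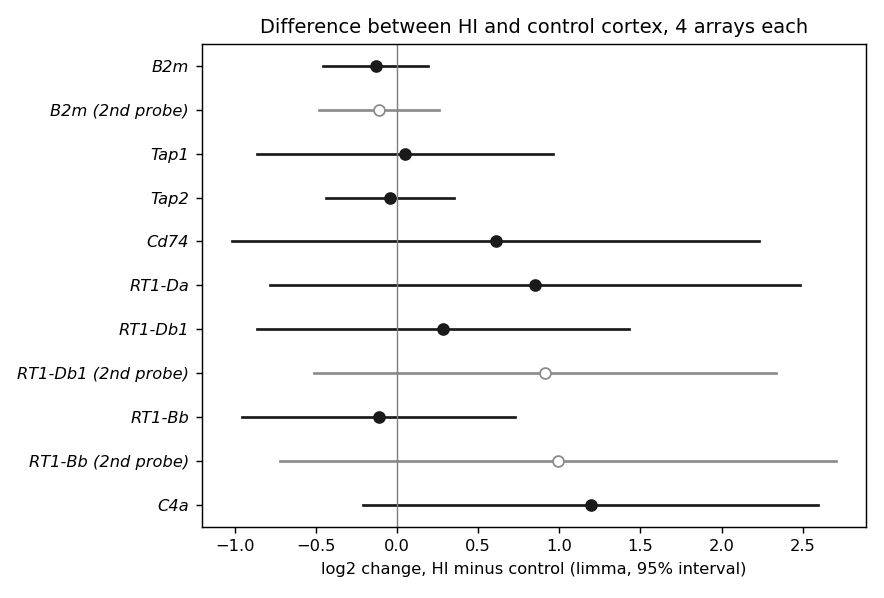
Log2 change, HI minus control, for each probe of the genes that was tested (filled for the probe that represents the gene, open for a 2nd probe), as points with limma's 95% interval as lines. Every interval crosses 0, from the narrow one of B2m (-0.45 to 0.19) to the wide ones of Cd74, RT1-Da and C4a.

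B2m was the steadiest of the genes. Its level was 5.27, 4.91, 4.80 and 4.96 in controls 1 to 4 and 4.76, 5.09, 4.77 and 4.79 in HI animals 1 to 4. Control 1 and HI 2 were the highest arrays and the other values lay close together, with the groups overlapping. Control animals averaged 4.98 ± 0.20 (SD, n = 4) and HI animals 4.85 ± 0.16 (SD, n = 4). The difference of -0.13 (SE 0.140, 95% interval -0.45 to 0.19, adjusted p = 0.635 with limma) was smaller than the spread in controls, and it was -0.035 without control 1. A second B2m probe, spotted 10 times on the array, gave a change of -0.11 (SE 0.160, adjusted p = 0.715, for second probes over all single probes) and had the same 4 highest arrays. The range of B2m over the 8 arrays was 0.51, and 18.4% of the genes tested had a smaller one. Without control 1 the range was 0.33 and that share 34.3%.

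Tap2 was about as steady over the 8 arrays, with a range of 0.61, and 25.6% of the genes tested had a smaller one. Without control 1 its range was still 0.61 and that share 67.1%. Controls measured 1.14, 1.18, 0.60 and 0.92 and HI animals 0.72, 1.20, 0.79 and 0.96, so the groups covered nearly the same range. Means of 0.96 ± 0.27 and 0.92 ± 0.22 (SD, n = 4 each) differed by -0.04 (SE 0.171, 95% interval -0.44 to 0.35, adjusted p = 0.900), or by 0.019 without control 1.

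For Tap1, its partner in the pump, controls measured -2.71, -0.90, -1.47 and -0.98 and HI animals -1.34, -1.51, -1.88 and -1.13. Control 1 was the lowest array and the remaining 7 overlapped. The change was 0.05 (SE 0.395, 95% interval -0.86 to 0.96, adjusted p = 0.950) with control 1 and -0.35 without it. The Tap1 interval is wider than those of B2m and Tap2.

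Cd74, RT1-Da and RT1-Db1 varied more between animals than the class I genes, with ranges over the 8 arrays of 2.88, 3.15 and 2.22 against 0.51, 0.61 and 1.80 for B2m, Tap2 and Tap1. The representative RT1-Bb probe, with a range of 1.57, did not exceed Tap1. Without control 1 the Tap1 range was 0.98 and those of Cd74, RT1-Da, RT1-Db1 and RT1-Bb were the same. In controls RT1-Db1 (SD 0.74) varied less than Tap1 (SD 0.83). Cd74 measured -2.39, -0.27, -2.57 and -2.40 in controls and -2.60, 0.28, -1.39 and -1.48 after HI. HI 2 and control 2 stood highest, HI 3 and HI 4 followed, and HI 1 lay with the other 3 controls. Means of -1.91 ± 1.10 and -1.30 ± 1.19 (SD, n = 4 each) differed by 0.61 (SE 0.704, 95% interval -1.02 to 2.23, adjusted p = 0.654). That difference was 1.15 without control 2 and 0.08 without HI 2. For Cd74, 94.9% of the genes tested had a smaller range.

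RT1-Da, the alpha chain of the D class II molecule, had the same 4 highest arrays. Its level was -4.21, -2.34, -4.51 and -4.23 in controls and -4.49, -1.36, -2.92 and -3.09 after HI. On control 1 it was not well above background, so it passed the filter through the HI group only. Again HI 2 and control 2 were highest and HI 1 lay among the controls. The change was 0.85 (SE 0.708, 95% interval -0.78 to 2.48, adjusted p = 0.594), 1.35 without control 2 and 0.32 without HI 2. A second RT1-Da probe was well above background on control 2, HI 2 and HI 4 only and was not tested.

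RT1-Db1, the D beta chain, measured -2.26, -1.03, -2.77 and -2.19 in controls and -2.52, -0.54, -2.14 and -1.90 after HI. The same pair of arrays was highest, with the groups overlapping. The change was 0.28 (SE 0.498, 95% interval -0.87 to 1.43, adjusted p = 0.760), and it was -0.13 without HI 2. A second RT1-Db1 probe gave 0.91 (SE 0.617, adjusted p = 0.586). It was not well above background on control 1, its lowest array at -4.18, and passed the filter through the HI group only. Another RT1-Db1 probe was not well above background on any array.

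The B molecule is read less clearly. RT1-Ba, its alpha chain, was not well above background on any of the 8 arrays, so its level is known only as below that bound. RT1-Bb, its beta chain, has a pair of probes that disagree. The one that represents the gene measured -2.13, -2.58, -2.70 and -3.13 in controls and -3.40, -1.83, -2.55 and -3.20 after HI. HI 2 was highest there too, but control 1 came next. Its change was -0.11 (SE 0.365, 95% interval -0.95 to 0.73, adjusted p = 0.870), and it was 0.056 without control 1. The other probe measured -4.23, -1.47, -4.19 and -3.90 in controls, with control 1 not well above background, and -3.65, -1.04, -2.64 and -2.50 after HI. It passed the filter through the HI group only. It gave 0.99 (SE 0.743, 95% interval -0.72 to 2.71, adjusted p = 0.590), and its 4 highest arrays were those of Cd74. Over the 8 arrays the values of this pair of RT1-Bb probes correlated at 0.39. Class II genes have near copies in the rat, so which transcripts each probe reads is uncertain.

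**Figure D2:**
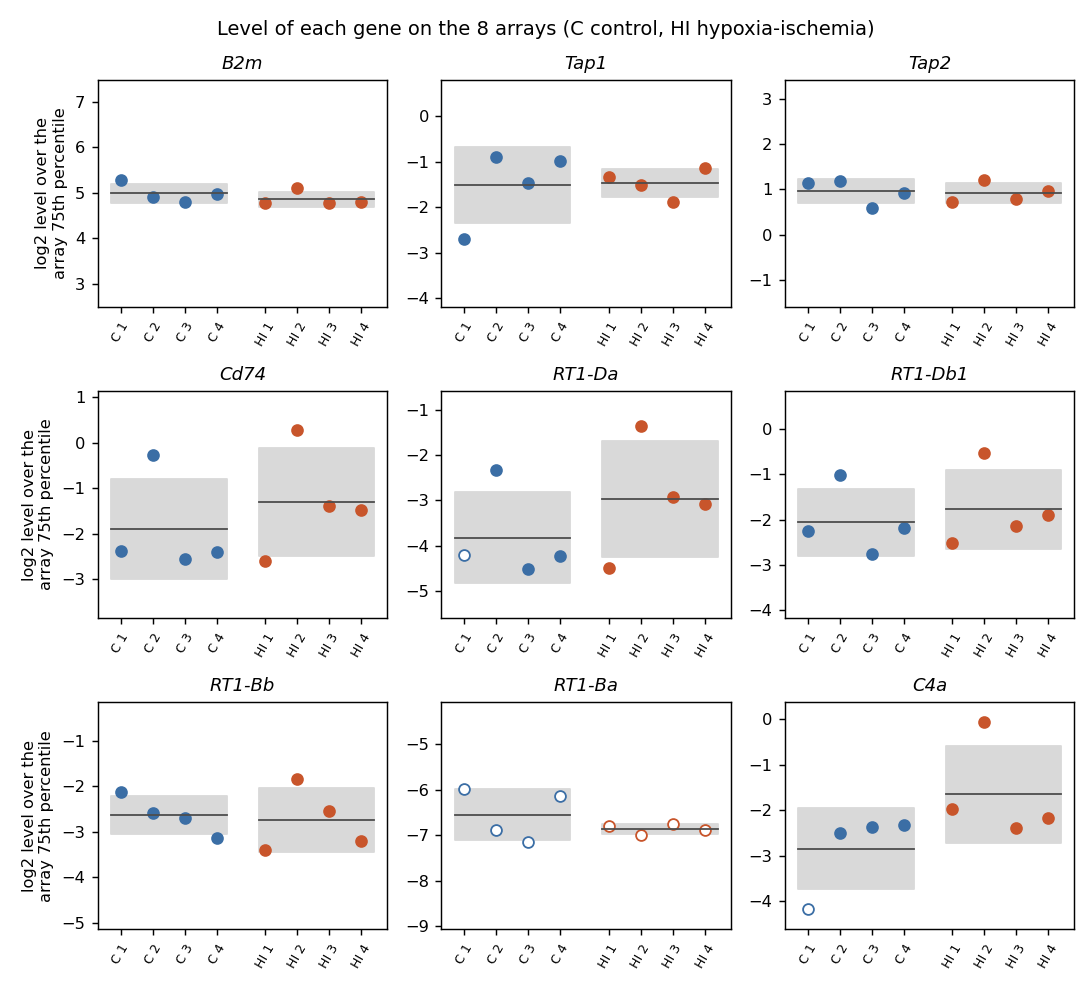
Level of each gene on each of the 8 arrays, in log2 units over the 75th percentile of the array, controls in blue and HI in orange. Lines are group means, grey boxes the mean ± SD, and open points arrays where the probe was not well above background. B2m and Tap2 lie within 0.51 and 0.61 of each other, while Cd74 and RT1-Da have high values on control 2 and HI 2.

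The shared high arrays were described over all 9 probes of the class II genes and Cd74. For 6 of the 9 the 4 highest arrays were HI 2, control 2, HI 3 and HI 4: Cd74, both RT1-Da probes, the first 2 RT1-Db1 probes and the second RT1-Bb probe. The exceptions were the representative RT1-Bb probe and the probes of RT1-Ba and RT1-Db1 that were not well above background on any array. Over the 8 arrays, which share slides and scans within a group, Cd74 correlated at 0.988 with RT1-Da and 0.962 with RT1-Db1. Without control 1 these were 0.987 and 0.966 over 7 arrays. With the representative RT1-Bb probe it correlated at 0.562, or 0.788 without control 1. With the second RT1-Bb probe it correlated at 0.976, or 0.984 without control 1. Among the class I genes Cd74 correlated at 0.684 with Tap2, 0.243 with Tap1 and 0.162 with B2m. Without control 1 these were 0.880, 0.00 and 0.636. Tap2 thus lay above the representative RT1-Bb probe and below the second one. The genes with a symbol most like Cd74 in pattern, of 5931 compared, were RT1-Da, Nexn (0.974) and RT1-Db1. Without control 1 Nexn correlated with Cd74 at 0.993, above RT1-Da and RT1-Db1. Nexn encodes an actin-binding protein. For B2m the genes most alike were Aprt (0.974), Ifi30 (0.962) and S1pr2 (0.958). Without control 1 these were 0.949, 0.906 and 0.928. Aprt is an enzyme that salvages adenine, Ifi30 the lysosomal thiol reductase that prepares antigen for class II, and S1pr2 a receptor for sphingosine 1-phosphate.

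**Figure D3:**
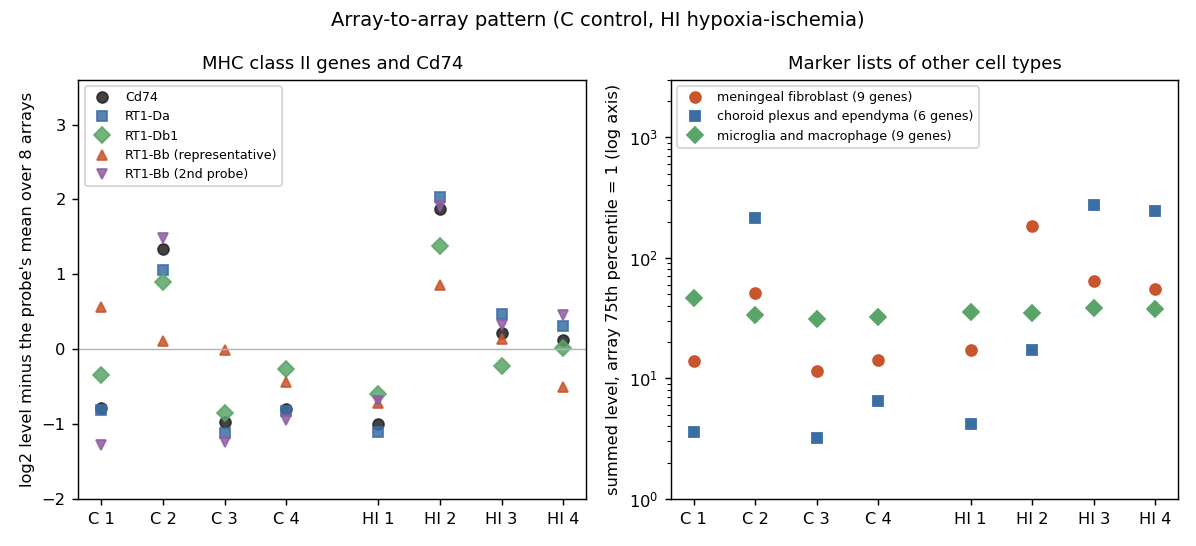
Left, log2 level of Cd74 and class II probes on each array minus the probe's mean over the 8 arrays; right, summed linear levels of 3 marker lists on a log axis, in multiples of the array's 75th percentile. The arrays that stand high for Cd74 are control 2, HI 2, HI 3 and HI 4, which also hold the highest meningeal and choroid plexus sums.

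Summed markers of border tissue were highest on the same arrays as most class II probes. Summed linear levels, in multiples of the 75th percentile of an array, were taken over each marker list. The meningeal fibroblast sum (9 of 12 listed genes measured) was 13.8, 51.5, 11.5 and 14.1 in controls and 17.0, 184, 63.6 and 55.4 after HI. The choroid plexus and ependyma sum (6 of 9 measured) was 3.62, 214, 3.23 and 6.46 in controls and 4.18, 17.2, 272 and 244 after HI. In both sums the 4 highest arrays were those of Cd74. Within them the choroid plexus sum was highest on HI 3 and the meningeal sum on HI 2. On HI 2 the choroid plexus sum rested mostly on Ttr, at a level of 3.86. Foxj1, at 0.49, was lower there than on any other array. Folr1 and Kcne2, at -2.62 and -3.75, lay below control 4, at -2.31 and -3.70. Kcnj13 and Aqp1, at -0.39 and -1.99, lay above every control but control 2. Ttr, the transthyretin of choroid plexus, had a level of 7.62 on control 2 and between -0.99 and 1.41 on the other controls. Col1a2, a collagen chain of fibroblasts, had a level of 5.28 on HI 2 and 0.69 to 1.90 on the other arrays. On control 2, HI 3 and HI 4 the meningeal sum rested mostly on Igf2, Fmod and Igfbp2. On control 2 Igf2 had a level of 5.07 and Igfbp2 one of 1.96, against at most 2.79 and -1.46 on the other controls. Col1a2, Dcn and Slc6a13 did not stand above the other controls on control 2. Their levels there were 1.01, 0.33 and -1.39, against highest values of 1.09, 0.59 and -1.12 on the other controls. On HI 3 and HI 4 Igf2 had levels of 5.33 and 5.14. There Slc6a13, at -1.48 and -1.46, lay below every control, while Col1a2, at 1.82 and 1.90, lay above every control. HI 1, which lay with controls for Cd74, did the same, with Slc6a13 at -1.51 and Col1a2 at 1.46. Col1a2 was thus higher on every HI array than on any control, unlike Cd74. The part of this tissue in the class II values was not tested. In bulk cortex, fewer cells of a type and less RNA per cell cannot be told apart.

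Markers of resident microglia had other highest arrays. The microglia and macrophage sum (9 of 15 measured) was 46.4, 33.3, 30.9 and 32.3 in controls and 35.4, 34.7, 38.3 and 37.5 after HI, with control 1 highest. The groups overlapped through control 1 alone, since the other controls lay below every HI array. Aif1, the microglial calcium-binding protein Iba1, had a change of 0.00 (adjusted p = 0.988). P2ry12, a purinergic receptor of microglia, had 0.25 (adjusted p = 0.637) with all arrays and 0.54 (adjusted p = 0.0193) without control 1. Itgam, on the same list, had 0.80 (adjusted p = 0.275), or 0.62 (adjusted p = 0.142) without control 1. The part of microglial RNA in the values was not tested. The sum for perivascular macrophages, monocytes and neutrophils rested on 2 of 12 genes. It ran from 1.92 to 4.07 in controls and from 3.16 to 6.78 after HI. Like Cd74, this sum was highest on HI 2 and next on control 2. HI 4 and control 4 followed, where HI 3 and HI 4 did for Cd74. Of dendritic cell markers only Clec10a was measured, at 1.51 on HI 2 and 0.263 to 0.380 elsewhere, and without control 1 its groups lay just apart. Of the 10 T and NK cell markers on the array, 7 were not well above background on any array, among them Cd2, Cd4, Cd8a and Cd28, and the sum over the 2 measured ran from 0.224 to 0.504 in controls and from 0.309 to 0.319 after HI. The 0.504 was control 1, and the other controls lay at 0.224 to 0.282, below every HI array. Cd3d, a chain of the T cell receptor complex, had a change of 0.25 (adjusted p = 0.583) with all arrays and 0.42 (adjusted p = 0.0472) without control 1. P2ry12 and Cd3d were named after their values were seen. The B cell marker on the array, Cd79b, was also never well above background. Endothelial sums overlapped, at 13 to 14.4 and 12.5 to 16.8, and Pecam1 was not well above background on any array. Red blood cell sums did not overlap, at 3.43 to 4.49 in controls and 4.78 to 11.7 after HI, and their part in the values was not tested. As a check of the tissue, the sums of cortical neuron genes were 123 to 184 and 128 to 142, and Slc17a7, the vesicular glutamate transporter of cortical neurons, was well above background on all 8 arrays.

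The promoters of the class II genes were set beside this shared pattern. Class II promoters are known to carry an X box and a Y box, bound by the RFX and NF-Y factors, which recruit the coactivator Ciita. The stretches below are the 150 bases before the annotated gene for the 4 class II chains, in the RefSeq table of the GRCr8 assembly, at chr20:4515243-4515392 (plus strand) for RT1-Da, chr20:4560183-4560332 (minus) for RT1-Db1, chr20:4576907-4577056 (plus) for RT1-Ba and chr20:4604119-4604268 (minus) for RT1-Bb. The stretches for RT1-Da and RT1-Db1 end 22 and 20 bases before the transcript start of the promoter table, and the others end at it. Capitals mark the Y box core CTGATTGG and the X box core TAGCAAC.
RT1-Da: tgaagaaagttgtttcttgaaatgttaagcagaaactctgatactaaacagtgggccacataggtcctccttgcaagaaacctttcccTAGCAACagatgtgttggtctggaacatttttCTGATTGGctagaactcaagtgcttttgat
RT1-Db1: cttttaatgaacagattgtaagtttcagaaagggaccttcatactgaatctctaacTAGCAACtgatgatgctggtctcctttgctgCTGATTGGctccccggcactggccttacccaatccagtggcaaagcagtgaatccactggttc
RT1-Ba: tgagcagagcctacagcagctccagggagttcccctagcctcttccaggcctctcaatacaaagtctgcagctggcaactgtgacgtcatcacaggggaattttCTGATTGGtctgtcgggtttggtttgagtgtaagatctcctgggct
RT1-Bb: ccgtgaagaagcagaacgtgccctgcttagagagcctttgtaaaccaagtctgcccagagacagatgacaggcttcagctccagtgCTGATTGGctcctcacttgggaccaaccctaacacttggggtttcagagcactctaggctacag
In the 250 bases before the transcript start, on either strand, the Y box core CTGATTGG was found in all 4 class II chains and in none of the other 5 genes. It occurs in 3.26% of 27457 rat promoters. The X box core TAGCAAC, found in 2.92% of promoters, was present in RT1-Da, RT1-Db1, Cd74 and Tap2. In RT1-Da and RT1-Db1 the X core began 32 and 31 bases before the Y core, in the same orientation. An interferon response core, GAAANNGAA, was found in B2m, Tap1 and Tap2 and occurs in 7.99% of promoters. None of these cores lay in the C4a promoter. These motifs were chosen after the promoters had been read, and a match describes letters, not binding. Ciita itself was not well above background on any array.

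C4a had the largest estimated change of the 8 tested genes and, among the probes tested, the widest range. Its level was -4.17, -2.51, -2.36 and -2.33 in controls and -1.97, -0.06, -2.39 and -2.17 after HI. Control 1, where the probe was not well above background, stood far below the other controls. The probe thus passed the filter through the HI group only. HI 2 stood far above the other HI animals, and the remaining 6 arrays lay between -2.51 and -1.97. Means of -2.84 ± 0.89 and -1.65 ± 1.07 (SD, n = 4 each) differed by 1.19 (SE 0.608, 95% interval -0.21 to 2.60, unadjusted p = 0.0852 and adjusted p = 0.531 with limma). The change was 0.75 without control 1, 0.67 without HI 2 and 0.22 without both (adjusted p = 0.351). The range of C4a over the 8 arrays was 4.11, and 99.1% of the genes tested had a smaller one. Without control 1 the range was 2.44 and that share 97.2%. C4a and C4b are near copies, C4b was not matched on the array, and which copy the probe reads is uncertain.

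**Figure D4:**
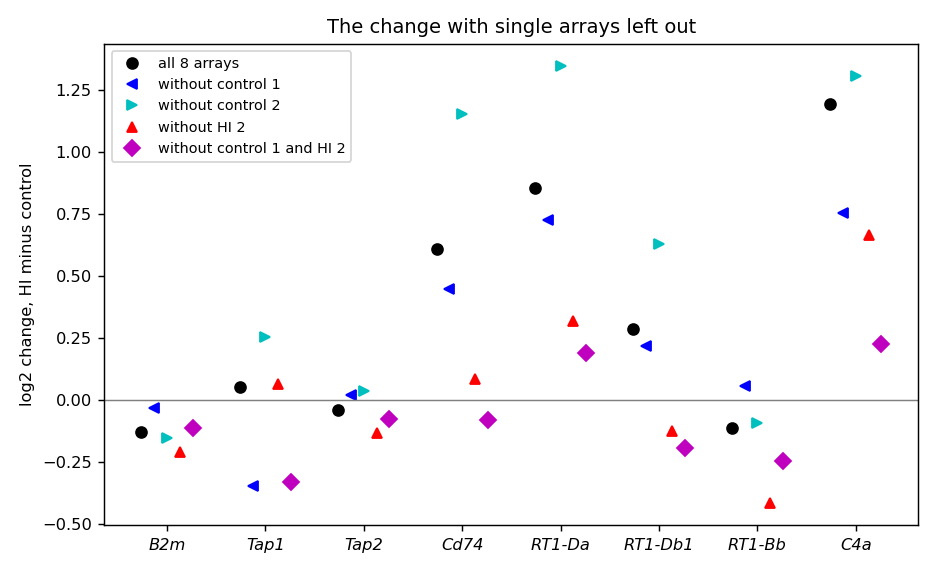
Log2 change, HI minus control, of each gene with all arrays and with control 1, control 2, HI 2, or control 1 and HI 2 left out. C4a goes from 1.19 to 0.22 and RT1-Da from 0.85 to 0.19 when control 1 and HI 2 are left out.

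The 4 highest arrays of C4a, HI 2, HI 1, HI 4 and control 4, were not those of Cd74. C4a correlated at 0.60 with Cd74 over 8 arrays and 0.582 without control 1. Among the tested class II probes its correlations ran from 0.128 with the representative RT1-Bb probe to 0.824 with the second RT1-Db1 probe. Without control 1 those probes gave 0.652 and 0.729, and the lowest was 0.553, with the second RT1-Bb probe. The genes most like C4a, of 5931 with a symbol, were Lum (0.995), Tagln2 (0.986) and Srgn (0.985). Without control 1 these were 0.994, 0.989 and 0.974. Lum encodes lumican, a matrix proteoglycan of fibroblasts that is also on the meningeal list, Tagln2 an actin-binding protein and Srgn the core protein of secretory granule proteoglycans. Lum measured -5.74, -3.22, -3.34 and -3.19 in controls and -2.83, -0.54, -3.38 and -2.88 after HI. Like C4a it was lowest on control 1 and highest on HI 2. The part of fibroblast RNA in the C4a values was not tested.

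The other genes of these pathways were read from 5 lists that leave out the 9 genes, with 157 genes listed, 97 on the array and 73 tested. Of the 73, 0 passed the adjusted threshold, 4 were higher and 3 lower at an unadjusted p under 0.05, and 7 had groups that did not overlap, where 0.918%, 10.6% and 14.2% of all genes did. The changes lay above 0 for 48 and below for 25, with a median of 0.08 against -0.03 over all genes, or 0.03 against 0.00 without control 1.

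Class I heavy chains, 12 tested, had 9 changes above 0 and a median of 0.27, which was 0.04 without control 1. RT1-CE3 measured 0.06, 0.94, 0.82 and 0.75 in controls and 1.07, 1.63, 1.67 and 1.28 after HI, so the groups did not overlap. Its change was 0.77 (SE 0.227, unadjusted p = 0.00963, adjusted p = 0.261). RT1-CE16 measured 1.61, 2.63, 2.57 and 2.39 in controls and 2.70, 3.09, 3.25 and 3.00 after HI, again apart, with a change of 0.71 (SE 0.243, adjusted p = 0.340). These heavy chains are near copies of each other, so the probes may read several. The levels of RT1-CE3 and RT1-CE16 were lowest on control 1, unlike B2m, which was highest there.

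Genes of class I peptide processing, 11 tested, had a median of 0.01 with 7 changes above 0. Psmb9, a proteasome subunit induced by interferon, had a change of -0.34 (SE 0.214, adjusted p = 0.578), and its partner Psmb8 one of 0.03 (adjusted p = 0.959). Pdia3, an oxidoreductase of the peptide-loading complex, had 0.26 (SE 0.151, adjusted p = 0.566). Tapbp, the tapasin that bridges Tap and class I, had 0.07 (adjusted p = 0.719).

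Genes of class II processing, 9 tested, had a median of 0.10 with 5 changes above 0. RT1-DMa, a chain of the DM molecule that loads class II, had a change of 0.17 (adjusted p = 0.586) and levels of 2.39 to 2.66 in controls and 2.51 to 2.86 after HI. The lysosomal proteases Ctsd and Ctsl had changes of -0.26 (adjusted p = 0.572) and 0.16 (adjusted p = 0.579).

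Complement genes, 19 tested, had a median of 0.27 with 13 changes above 0, and 0.31 without control 1. Itgam, the alpha chain of complement receptor 3 and also a gene of the microglia list, measured -3.17, -2.07, -2.76 and -2.41 in controls and -1.97, -1.66, -1.52 and -2.04 after HI. The groups lay just apart, and the change was 0.80 (SE 0.245, unadjusted p = 0.0112, adjusted p = 0.275). C1qc, a chain of the C1q recognition molecule that acts just before C4, had a change of 0.59 (SE 0.217, adjusted p = 0.377), with groups that overlapped. C2, which joins C4 in the next enzyme of the cascade, had 0.46 (SE 0.271, adjusted p = 0.565) and was highest on HI 2, at a level of 0.71. C3, the substrate of that enzyme, had -0.20 (SE 0.265, adjusted p = 0.684) and was highest on control 2, at 1.22.

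Interferon response genes, 22 tested, had a median of 0.05, or -0.05 without control 1, with 14 changes above 0. The 3 at an unadjusted p under 0.05 were all lower. Rsad2, the antiviral protein viperin, had a change of -0.34 (SE 0.131, adjusted p = 0.399) and Isg20, an exonuclease, one of -0.35 (SE 0.144, adjusted p = 0.445). The other was Irf3, a transcription factor that induces interferon, at -0.39 (SE 0.166, adjusted p = 0.460), which was named after its values were seen. Irf1, a transcription factor that interferon gamma induces, had a change of 0.17 (adjusted p = 0.669), and of -0.02 without control 1. Ifng, Cxcl9 and Cxcl11 were not well above background on any array.

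**Figure D5:**
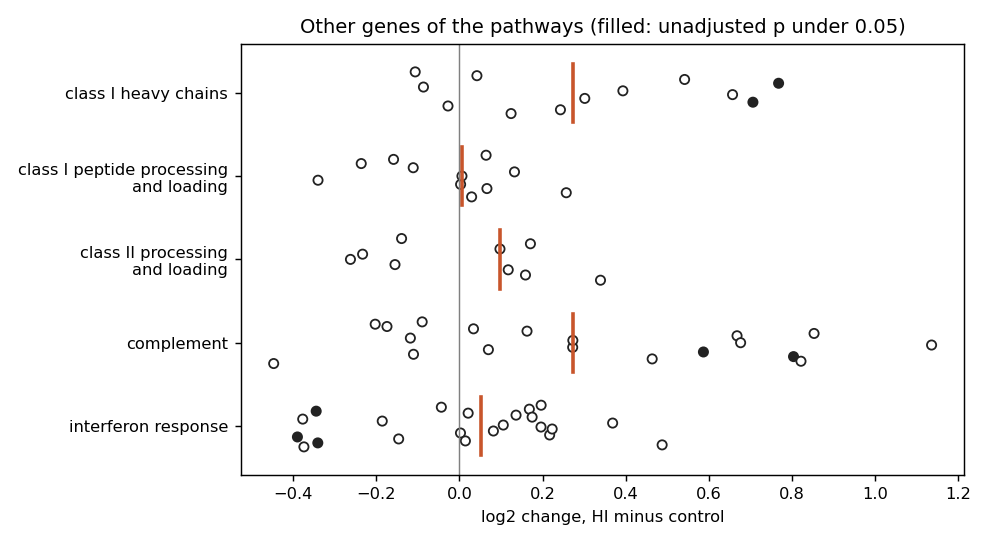
Log2 change, HI minus control, of every tested gene of the 5 pathway lists (points, filled at an unadjusted p under 0.05), with the median of each list as a line. The medians lie between 0.01 and 0.27, and 0 genes passed the adjusted threshold.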

How the data were processed

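Total RNA from 8 cortices was labelled with Cy3 and hybridised to 1-colour Agilent rat arrays. The deposited scanner files hold an intensity for each spot, already background-subtracted by Agilent Feature Extraction 9.5.3.1 per the file headers, with flags for spots well above background, saturated or outlying. The authors' deposited series table holds log2 values for 41088 rows, of which 41012 match probes. Set against the scanner values less each probe's median, every column reached r of at least 0.9997, so scale, centring and direction are known. Column medians were 0.48 for control 1 and -0.05 to 0.04 for the others.

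Spots of a probe were averaged after 1639 of 45018 spots, all controls, and outlier-flagged spots had been removed, giving 41012 probes with 87 missing values. No spot was saturated. RefSeq transcripts of GRCr8, matched by unversioned accession, named 10735 probes (26.2%). Listed symbols without a match are not analysed here. Each gene is its brightest probe by mean level, among those kept. Groups were compared in limma 3.58.1 (R 4.3.3) with lmFit and eBayes, and p-values were adjusted by the Benjamini-Hochberg method across all genes tested. The fit was tested on simulated data. The labels give each array as 1 animal, and the number of arrays limits precision. The array's design build differs from GRCr8, so probe coordinates are not given.

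The 9 genes, the lists and the tests were chosen with earlier results of these data known. Named genes were these 9, the 2 of each pathway list with the smallest unadjusted p, set partners and markers, and the 3 genes closest by Pearson correlation to B2m, Cd74 and C4a. One gene that this rule picks is not reported here. Settings varied one at a time were the background correction (normexp, offset 50, on median signals), the scaling, the values (the authors' table), the filter on dim probes, the averaging of probes, the variance prior, array weights, the replicate block and each array left out. One setting, without both control 1 and HI 2, was added once the data had been seen. Slide could not be fitted as a block.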

Additional observations from a re-analysis of the deposited data

Results flagged for a closer look

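In each gene's groups of 4, the highest or lowest array was compared with the others by its gap to the nearest one as a share of the group's range, against Dixon's critical value for 4 samples at the 95% level. Of 16 groups checked, 4 held such an array, where chance flags about 1 in 20 independent groups. The groups checked share the same 8 arrays and are not independent, so no excess over chance can be read from the count. Cd74 and RT1-Da, both flagged on control 2, correlated at 0.988 over the arrays. The Cd74 level of control 2, -0.27, stood above the other controls at -2.57 to -2.39. The RT1-Da level of the same array, -2.34, stood above -4.51 to -4.21. The C4a level of control 1, -4.17, stood below the other controls at -2.51 to -2.33. The B2m level of HI 2, 5.09, stood above the other HI arrays at 4.76 to 4.79.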

How the results depend on the processing

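Under all 20 alternatives 0 of the antigen presentation and C4 genes passed the adjusted threshold. The direction held under every alternative run for B2m (-0.21 to -0.04), RT1-Da (0.19 to 1.36) and C4a (0.22 to 1.44, adjusted p 0.351 to 0.730). The alternatives reuse the same 8 arrays, so a direction that holds is not independent support. RT1-Da and C4a passed the main filter through the HI group only, since neither was well above background on control 1. They were not tested in the filter that asks for all 8 arrays above background. RT1-Bb turned to 0.0023 with normexp and quantile scaling and 0.44 with the mean of its probes. Tap1 turned to -0.12 with normexp and the 75th percentile, and Tap2 to 0.034 with the array median. Array weights gave -0.089 for RT1-Db1, -0.34 for Tap1, 1 pathway gene past the threshold and 1329 genes in all. Leaving out control 1 and HI 2 together, chosen after seeing the data, gave -0.080 for Cd74, -0.20 for RT1-Db1, -0.33 for Tap1, 1 pathway gene and 706 genes. In both settings that pathway gene was RT1-CE5, lower by -0.60 and -0.67 (adjusted p = 0.0464 and 0.0377), against -0.11 with all arrays. Leaving out 1 array at a time gave -0.42 to 0.11 for RT1-Bb, -0.35 to 0.25 for Tap1, -0.16 to 0.033 for Tap2, -0.13 to 0.63 for RT1-Db1 and 116 to 793 genes in all, most without control 1. The causes were not tested.

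Replicate numbers are shared between the groups' labels, but no sign was seen that they pair the arrays. With each gene's group mean subtracted, same-numbered arrays correlated at -0.05, -0.03, -0.16 and 0.03. With so few arrays this check cannot exclude a pairing. With the replicate block 69 genes passed in all, and none of the antigen presentation genes, although RT1-Da had an unadjusted p of 0.0479 (adjusted p = 0.580).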
